A study of Homo sapiens with 15 samples.

Results

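CCDC186 (listed in the screen by its older name, C10orf118), GATD3A (older name C21orf33), CHMP6 and ESYT1 are 4 of the 39 candidate genes of a CRISPR screen in HEK293T, a human embryonic kidney cell line. In that screen, mutated HEK293T cells were grown with U937 leukemia cells under cytarabine, and guides were read from the HEK293T cells beside surviving U937 colonies. In the paper's follow-up, knockout of C21orf33 in the supporting cells raised the number of surviving U937 and pancreatic cancer cells under drug. C10orf118, CHMP6 and ESYT1 were not among the candidates for which it reports this. The C21orf33 knockout clone was not among those for which it reports less apoptosis. The 4 genes were chosen by name as candidates expressed in HEK293T that were not themselves sequenced as knockouts, and they are 4 of the 58735 genes listed in the expression tables. The comparison asks whether their RNA changed when another candidate was lost.

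RNA was sequenced from 15 HEK293T cultures in 5 groups of 3 wells. RHBDD2-CKO, MLPH-CKO, MAGI2-CKO and C9orf89-CKO are CRISPR knockout clones of the gene named (C9orf89 is CARD19 in the current annotation), called below by that gene, and Non-target is the control labelled WT that received a guide without a target. All lines, Non-target included, carried the lentiCRISPRv2 vector with Cas9 and a guide, and none was given another agent for this experiment according to the labels. Each line is a single clone from limiting dilution, so the wells measure the spread of culture, extraction and library preparation and not that between clones of 1 genotype. A difference between a clone and Non-target therefore cannot be told apart from a difference between any pair of clones, and the same 3 Non-target wells served all 4 comparisons.

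Levels are given in FPKM, a read level corrected for the length of the exons and the depth of the library, and the libraries held 15517856 to 19489918 fragments on genes. Within every group the well numbered 1 stood apart: a chi-square of the counts averaged 14.6 to 24.9 a gene when well 1 was in the pair and 2.40 to 6.54 for well 2 with well 3. The wells numbered 1 also deviated from their group means in the same way: between groups their deviations correlated at 0.128 to 0.312 in all 10 pairs. The share of mitochondrial fragments was 2.63% in well 1 of Non-target against 1.57% and 1.61% in wells 2 and 3, and it was also highest in well 1 of the C9orf89 clone and the MAGI2 clone, but not of the MLPH clone or the RHBDD2 clone. Results are therefore also given for wells 2 and 3 alone, a setting chosen after the data were seen, and the part of this difference in the results was not tested.

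The 4 proteins work on different membranes of the cell. CCDC186 is a long coiled-coil protein of the Golgi that binds the GTPase RAB2 and takes part in the maturation of dense-core vesicles. CHMP6 is a small subunit of ESCRT-III, the filament that pinches membranes away from the cytosol during multivesicular body formation and cell division, and it links ESCRT-II to the growing filament. ESYT1, an extended synaptotagmin, sits in the endoplasmic reticulum (ER) and holds it close to the plasma membrane through calcium-binding C2 domains. GATD3A is a mitochondrial protein with a fold related to glutamine amidotransferases, and the genome annotation holds a near-identical copy of it, GATD3B, elsewhere on the same chromosome (the RefSeq gene table lists both names under a single gene, GATD3).

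The guides that named these genes in the screen are shown because they mark where each gene would be cut, and because the GATD3A guide shows how alike its 2 copies are. Each guide is written 5′ to 3′ in lower case, and the capitals mark the adjacent NGG motif that Cas9 needs.
CCDC186: gaaatacctgttccatccgtTGG
GATD3A: agccgtccgaaggcgagagcAGG
CHMP6: gctcaagaagaagcgataccAGG
ESYT1: aatgttcttcatccgacgcc
Positions were found in the exons of GENCODE v29 (GRCh38). The CHMP6 guide lay at chr17:80995034-80995053 on the plus strand, in coding exon 3 of 8. The ESYT1 guide lay at chr12:56131545-56131564 on the plus strand, in coding exon 6 of 31, so close to the end of the exon that its motif ran into the intron and is not shown. Of the CCDC186 guide, the last 13 bases matched the plus strand at the edge of coding exon 4 of 16 (chr10:114151092-114151104), and the first 7 fell past that edge. The GATD3A guide matched coding exon 3 of 7 of GATD3A at chr21:44136152-44136171 on the plus strand and, with the same motif, coding exon 3 of 7 of GATD3B at chr21:5125881-5125900 on the minus strand. None of these guides was used in the sequenced lines. The guides of the 5 sequenced lines had 7 to 10 mismatches to the nearest site with an NGG motif in the exons of the 4 genes.

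The targeted genes were read first, as far as RNA levels can check the labels. CARD19 was 4.34, 4.27 and 4.34 FPKM in the C9orf89 clone against 5.70, 7.71 and 6.27 FPKM in Non-target, a log2 fold change of -0.58 (limma, adjusted p = 0.000977), and it was also lower in the RHBDD2 clone (-0.44, adjusted p = 0.00489). RHBDD2 was 11.2, 13.5 and 12.4 FPKM in the RHBDD2 clone against 27.4, 38.1 and 34.9 FPKM in Non-target. Its log2 fold change was -1.42 in the RHBDD2 clone (limma, adjusted p = 7.56e-06) and -1.27 in the MAGI2 clone (adjusted p = 1.55e-05), so RHBDD2 RNA does not tell these 2 clones apart by its level. MAGI2 stayed at or under 0.123 FPKM in every library, below the filter for testing, with means of 0.115 FPKM in Non-target, 0.0680 FPKM in the MAGI2 clone and 0.0718 to 0.0838 FPKM in the other 3 clones. MLPH had 0 fragments in all 15 libraries, and a count of 0 allows up to 3 fragments, or 0.0205 to 0.0258 FPKM depending on the library, for counting error only. A knockout that changes the coding sequence need not change the RNA level, so the labels of the MAGI2 and MLPH clones could not be checked here. For its HEK293T clones the paper reports loss of the C9orf89 and RHBDD2 proteins by western blot, and of MAGI2 and MLPH by flow cytometry.

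The cell line was checked by marker genes. Of 9 genes of embryonic kidney and epithelial cells, 8 averaged over 0.5 FPKM in each group except the RHBDD2 clone, where 7 did, with VIM, an intermediate filament gene, the most abundant at a median of 62.0 FPKM. PAX8, a defining kidney factor, had at most 3 fragments in a library. Of 8 myeloid genes of the kind U937 cells express, 0 averaged over 0.5 FPKM in any group and their summed mean was 0.168 to 0.329 FPKM, with MPO at 0 fragments in every library. Of 8 mesenchymal genes, 1 to 3 averaged over 0.5 FPKM, and COL1A1, a collagen gene, made up most of their sum of 3.81 to 5.31 FPKM.

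All 4 genes passed the filter of at least 0.5 FPKM in at least 3 libraries in all 15 libraries, as being expressed had chosen them. ESYT1 was the most abundant, at 25.2 to 35.7 FPKM over the 15 libraries, followed by CHMP6 at 7.31 to 14.9 FPKM. GATD3A ran from 3.27 to 6.01 FPKM and CCDC186 from 2.03 to 4.48 FPKM. These levels rested on 2594 to 3593 fragments a library for ESYT1, 284 to 516 for CHMP6, 423 to 840 for GATD3A and 283 to 670 for CCDC186. ESYT1 was the steadiest, with a coefficient of variation of 9.17% over the libraries, against 18.4% for GATD3A, 19.2% for CHMP6 and 21.9% for CCDC186. Of the other candidates, 12 whose knockouts were not sequenced here passed the same filter, from ODF3L2 at a mean of 0.632 FPKM to C19orf70 at 29.6 FPKM. Another 21 candidates did not pass, the targeted MAGI2 and MLPH among them, the highest being KCNAB1 at 0.203 FPKM.

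**Figure D1:**
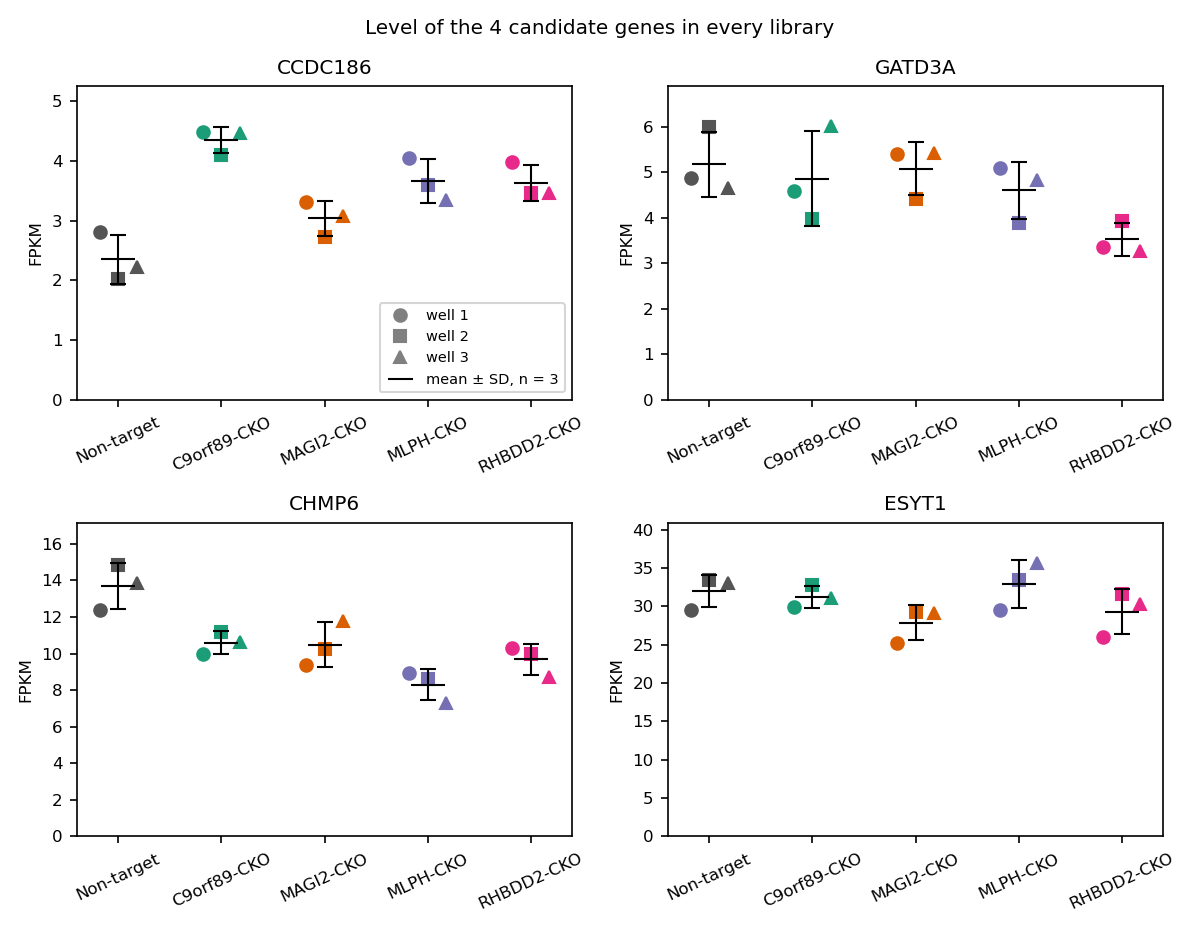
FPKM (linear axis from 0) of CCDC186, GATD3A, CHMP6 and ESYT1 in every library, by group; symbols are wells 1, 2 and 3, and bars are the mean ± SD of 3 wells. CCDC186 averaged 2.36 FPKM in Non-target and 3.04 to 4.35 FPKM in the CKO clones, and CHMP6 averaged 13.7 FPKM in Non-target and 8.29 to 10.6 FPKM in the CKO clones.

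CCDC186 was higher in all 4 CKO clones than in Non-target and CHMP6 was lower in all 4, while with all 15 libraries and no term for the well number GATD3A passed the threshold in the RHBDD2 clone alone and ESYT1 in no clone. ESYT1 depended on how the wells numbered 1 were treated, as given with its values and at the end. Differences were tested with limma on log2(FPKM + 0.1) over 16175 genes, with p-values adjusted over all of them within each comparison and a threshold of 0.05, and log2 fold changes are on that scale. Such changes were common among all tested genes. Against Non-target 26.0% of the tested genes passed in the C9orf89 clone, made up of 12.9% of the tested genes that were higher and 13.1% that were lower. The MAGI2 clone had 36.1% (17.0% up, 19.1% down), the MLPH clone had 30.1% (14.5% up, 15.5% down), and for RHBDD2 34.1% passed, split into 17.4% up and 16.7% down. Over all tested genes, 3.39% were higher in all 4 clones, 3.26% were lower in all 4 and 38.5% passed in none, and 17.7% passed in 1 direction in at least 3 clones, with the same Non-target wells in all 4 comparisons.

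CCDC186 (ENSG00000165813) lies at chr10:114120862-114174232 on the minus strand. Its level in Non-target was 2.82, 2.03 and 2.22 FPKM in wells 1 to 3, and well 1 was the highest in all 5 groups. The C9orf89 clone had 4.48, 4.11 and 4.47 FPKM, above every Non-target well, and the ratio of the means was 1.85. In the MLPH clone it was 4.06, 3.59 and 3.34 FPKM and in the RHBDD2 clone 3.99, 3.47 and 3.46 FPKM. Both clones again lay above every Non-target well, with ratios of the means of 1.56 and 1.54. In the MAGI2 clone it was 3.31, 2.73 and 3.08 FPKM, where well 2 fell below well 1 of Non-target, and the ratio of the means was 1.29.

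The log2 fold change of CCDC186 was 0.87 (SE 0.119 in each comparison, limma, adjusted p = 0.000181) in the C9orf89 clone, 0.62 (adjusted p = 0.00167) in the MLPH clone, 0.62 (adjusted p = 0.00163) in the RHBDD2 clone and 0.36 (adjusted p = 0.0304) in the MAGI2 clone. All 4 differences passed again with wells 2 and 3 alone, at 0.98, 0.68, 0.68 and 0.43. In that setting 32.4%, 36.9%, 42.0% and 40.4% of all tested genes passed, with the clones in the same order. The difference in the MAGI2 clone was the least firm: without Non-target well 2 it was 0.27 (adjusted p = 0.126), without Non-target well 3 it was 0.33 (adjusted p = 0.0944), without well 1 of the MAGI2 clone it was 0.30 (adjusted p = 0.107) and without well 3 of the MAGI2 clone it was 0.35 (adjusted p = 0.0764). In order of level the groups ran from the C9orf89 clone over the MLPH clone, the RHBDD2 clone and the MAGI2 clone to Non-target. Between clones, the C9orf89 clone exceeded the MAGI2 clone by 0.51 (limma, adjusted p = 0.00844), a comparison in which 22.5% of all tested genes passed, and the other 5 pairs of clones missed the threshold (adjusted p from 0.107 to 0.971). With wells 2 and 3 alone the C9orf89 clone also passed against the RHBDD2 clone (0.30, adjusted p = 0.0422), as did 5638 of 16175 tested genes, and 4 of these 5 pairs passed with the replicate block given at the end. Single-gene exact permutation tests on 3 against 3 wells cannot go below p = 0.1, which CCDC186 reached in the C9orf89 clone, the MLPH clone and the RHBDD2 clone. In these clones its wells did not overlap Non-target, which held for 39.7%, 41.1% and 44.2% of all tested genes.

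CHMP6 (ENSG00000176108) lies at chr17:80991598-81009517 on the plus strand. In Non-target it was 12.4, 14.9 and 13.9 FPKM in wells 1 to 3. In the MLPH clone it was 8.92, 8.62 and 7.31 FPKM, and its mean fell by 39.6%. In the RHBDD2 clone it was 10.3, 9.98 and 8.74 FPKM, and its mean fell by 29.4%. In the MAGI2 clone it was 9.39, 10.2 and 11.8 FPKM, and its mean fell by 23.5%. The C9orf89 clone had 9.98, 11.2 and 10.6 FPKM, and its mean fell by 22.7%. No well of any clone reached the lowest Non-target well. Groups that do not overlap were common here: over all tested genes their share was 39.7% in the C9orf89 clone, 46.8% in the MAGI2 clone, 41.1% in the MLPH clone and 44.2% in the RHBDD2 clone.

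The log2 fold change of CHMP6 was -0.72 (SE 0.105 in each comparison, limma, adjusted p = 0.000243) in the MLPH clone, -0.50 (adjusted p = 0.00293) in the RHBDD2 clone, -0.39 (adjusted p = 0.0118) in the MAGI2 clone and -0.37 (adjusted p = 0.0215) in the C9orf89 clone. All 4 passed with wells 2 and 3 alone, at -0.85, -0.62, -0.38 and -0.39, where 36.9%, 42.0%, 40.4% and 32.4% of all tested genes passed. The difference in the C9orf89 clone missed the threshold without Non-target well 2 (-0.31, adjusted p = 0.0873), Non-target well 3 (-0.35, adjusted p = 0.0635), well 1 of the C9orf89 clone (-0.32, adjusted p = 0.0727) or well 3 of the C9orf89 clone (-0.37, adjusted p = 0.0526). That in the MAGI2 clone missed it without Non-target well 2 (-0.33, adjusted p = 0.0512) or well 1 of the MAGI2 clone (-0.31, adjusted p = 0.0520). From high to low the order was Non-target, the C9orf89 clone, the MAGI2 clone, the RHBDD2 clone and the MLPH clone. Among the clones, CHMP6 was higher by 0.36 in the C9orf89 clone than in the MLPH clone (limma, adjusted p = 0.0402), where 14.2% of all tested genes passed, and by 0.33 in the MAGI2 clone than in the MLPH clone (adjusted p = 0.0384), where 21.2% passed. Both pairs missed the threshold under several other settings given at the end, and the other 4 pairs missed it here (adjusted p from 0.118 to 0.918).

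GATD3A (ENSG00000160221) lies at chr21:44133605-44210114 on the plus strand. In Non-target it was 4.88, 5.99 and 4.66 FPKM in wells 1 to 3. In the RHBDD2 clone it was 3.36, 3.94 and 3.27 FPKM, below every Non-target well, and the ratio of the means was 0.680. The log2 fold change was -0.54 (SE 0.157, limma, adjusted p = 0.0182). Of all tested genes, 44.2% did not overlap Non-target in this clone and 34.1% passed the threshold. GATD3A was 4.59, 3.97 and 6.01 FPKM in the C9orf89 clone, 5.41, 4.40 and 5.41 FPKM in the MAGI2 clone and 5.09, 3.89 and 4.82 FPKM in the MLPH clone. These 3 groups overlapped Non-target, with log2 fold changes of -0.10 (95% interval -0.44 to 0.24), -0.03 (-0.37 to 0.31) and -0.17 (-0.51 to 0.17). Among the clones, the MAGI2 clone exceeded the RHBDD2 clone by 0.51 (limma, adjusted p = 0.0189), in a comparison in which 41.6% of all tested genes passed. The other 5 pairs missed the threshold, including the C9orf89 clone against the RHBDD2 clone at 0.44 (adjusted p = 0.0533), where 29.3% of all tested genes passed.

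The difference of GATD3A in the RHBDD2 clone was smaller when its 2 copies were counted together, and the reason for this was not tested. GATD3B lies at chr21:5079294-5128425 on the minus strand, and 32.5% of the distinct 50-base windows of GATD3A transcripts also occurred in GATD3B transcripts, which is 81.5% of the windows of GATD3B. GATD3B itself was 4.89 to 5.89 FPKM in the RHBDD2 clone against 4.04 to 5.58 FPKM in Non-target, a log2 fold change of 0.10 (SE 0.221, limma, adjusted p = 0.767). GATD3A held 69.1% to 74.8% of the fragments of both copies in Non-target and 59.4% to 67.3% in the RHBDD2 clone. When both copies were counted as 1 gene, the RHBDD2 clone had 43.5 to 48.6 of every 1000000 fragments on genes and Non-target 49.4 to 62.5, without overlap. Of all tested genes, 44.2% did not overlap Non-target in this clone. The log2 fold change of the summed copies was -0.34, in the same direction, and missed the threshold (limma, adjusted p = 0.0918). For the sum, the MAGI2 clone against the RHBDD2 clone was 0.38 (adjusted p = 0.0512). For GATD3A by itself, the RHBDD2 clone also missed the threshold against Non-target with wells 2 and 3 alone (-0.55, adjusted p = 0.0860), without Non-target well 2 (-0.43, adjusted p = 0.0824), without well 1 of the RHBDD2 clone (-0.51, adjusted p = 0.0506) and without well 3 of the RHBDD2 clone (-0.49, adjusted p = 0.0647). The values of GATD3A and GATD3B are thus uncertain as those of single genes.

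**Figure D2:**
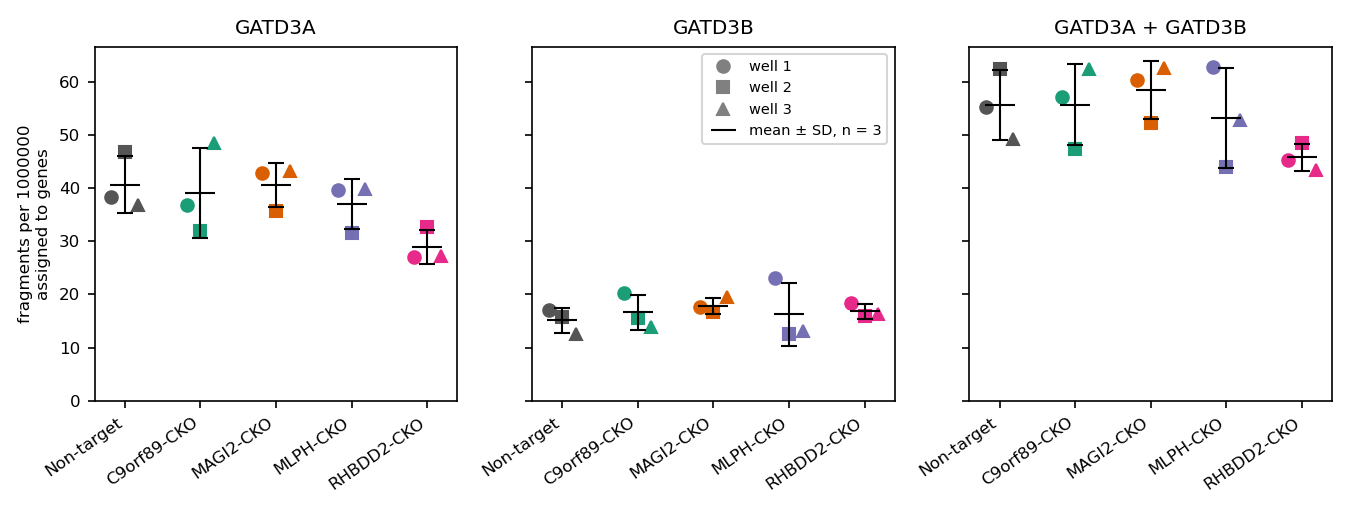
Fragments of each copy in 1000000 fragments on genes (linear axis from 0, shared by the panels) for GATD3A, GATD3B and both summed, in every library by group; symbols are wells, and bars are the mean ± SD of 3 wells. The RHBDD2 clone lay at 27.0 to 32.7 for GATD3A against 36.9 to 46.8 in Non-target, while the ranges of the groups overlapped for GATD3B, at 15.9 to 18.4 against 12.5 to 17.1.

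ESYT1 (ENSG00000139641) lies at chr12:56118250-56144671 on the plus strand. In Non-target it was 29.6, 33.4 and 33.0 FPKM in wells 1 to 3, and well 1 was the lowest in all 5 groups. In the C9orf89 clone it was 29.9, 32.7 and 31.0 FPKM and in the MLPH clone 29.5, 33.5 and 35.7 FPKM, both overlapping Non-target. In the RHBDD2 clone it was 26.0, 31.6 and 30.3 FPKM, again with overlap. In the MAGI2 clone it was 25.2, 29.3 and 29.1 FPKM, just below the lowest Non-target well. Of all tested genes, 46.8% did not overlap Non-target in the MAGI2 clone. The log2 fold changes were -0.03 (95% interval -0.24 to 0.17, limma, adjusted p = 0.826) in the C9orf89 clone, 0.04 (-0.17 to 0.24, adjusted p = 0.815) in the MLPH clone, -0.13 (-0.33 to 0.07, adjusted p = 0.316) in the RHBDD2 clone and -0.20 (-0.40 to 0.0017, adjusted p = 0.115) in the MAGI2 clone. Without well 1 of any group the difference in the MAGI2 clone was -0.19 and passed (adjusted p = 0.0158), and so did the MAGI2 clone against the MLPH clone (-0.24, adjusted p = 0.00868) and the MLPH clone against the RHBDD2 clone (0.16, adjusted p = 0.0315), while with all wells and no term for the well number no pair of clones passed. With such a term (a replicate block) more of the ESYT1 comparisons passed, as given at the end. In these 3 comparisons 6533, 4179 and 6371 of all 16175 tested genes passed from wells 2 and 3, and 37.0% passed between the MLPH clone and the RHBDD2 clone with all wells. The order of the means was the MLPH clone, Non-target, the C9orf89 clone, the RHBDD2 clone and the MAGI2 clone.

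**Figure D3:**
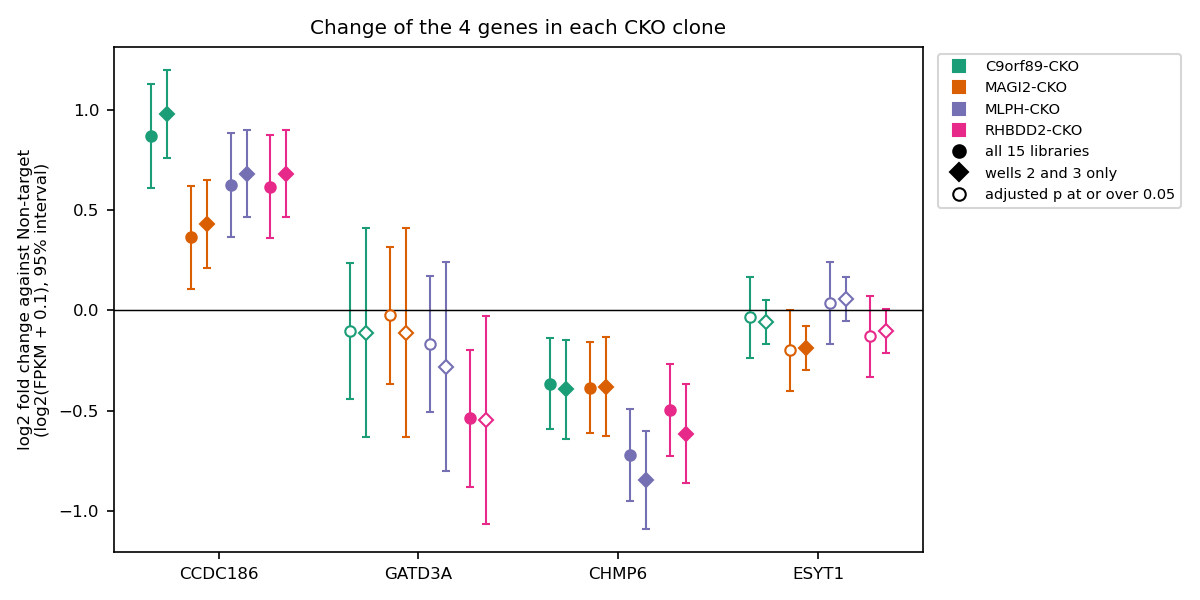
Log2 fold change against Non-target with its 95% interval for each gene and clone, from all 15 libraries (circles) and from wells 2 and 3 alone (diamonds); open symbols missed the threshold. CCDC186 lay above 0 in all 4 clones (0.36 to 0.87 from all libraries) and CHMP6 below 0 (-0.72 to -0.37), whereas 3 of 4 intervals of GATD3A and all 4 of ESYT1 reached across 0 with all libraries.

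The other extended synaptotagmins were read beside ESYT1. ESYT2, which tethers the same membranes, was 22.8, 24.7 and 25.8 FPKM in wells 1 to 3 of Non-target and 18.3, 19.1 and 19.6 FPKM in those of the RHBDD2 clone, without overlap and with a log2 fold change of -0.36 (SE 0.0726, limma, adjusted p = 0.00229). In the RHBDD2 clone 44.2% of all tested genes did not overlap Non-target and 34.1% passed the threshold. ESYT2 missed the threshold in the C9orf89 clone (-0.01), the MAGI2 clone (-0.07) and the MLPH clone (0.02). ESYT3 had at most 5 fragments in a library and was not tested. Whether ESYT1 and ESYT2 differed from each other in the RHBDD2 clone was not tested.

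The positions of the 4 genes were then compared with what surrounded them. For CCDC186, the 100 nearest tested genes on chromosome 10 had a median log2 fold change of 0.32 in the C9orf89 clone, 0.33 in the MAGI2 clone and 0.38 in the MLPH clone, and of 0.03 in the RHBDD2 clone. Of these neighbours 49, 52, 54 and 24 of 100 passed the threshold as higher in the 4 clones in that order, and 3, 2, 1 and 15 as lower. Over all tested genes 12.9%, 17.0%, 14.5% and 17.4% passed as higher, and 13.1%, 19.1%, 15.5% and 16.7% as lower. CCDC186 exceeded the median of its neighbours by 0.55 in the C9orf89 clone, 0.03 in the MAGI2 clone, 0.25 in the MLPH clone and 0.59 in the RHBDD2 clone. In the MAGI2 clone, 43 of 100 neighbours had a larger log2 fold change than CCDC186, and in the other clones 6 to 15 did. The part of the surrounding region in the level of CCDC186 was not tested.

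For CHMP6 the 100 nearest tested genes on chromosome 17 had medians of 0.04 in the C9orf89 clone, 0.21 in the MAGI2 clone, 0.14 in the MLPH clone and 0.02 in the RHBDD2 clone, and CHMP6 less that median was -0.41, -0.59, -0.86 and -0.52 in that order. Only 6 of 100 neighbours had a smaller log2 fold change than CHMP6 in the MLPH clone, and 10 to 21 did in the other clones. For GATD3A the medians on chromosome 21 were 0.20, 0.26, 0.21 and 0.18, and for ESYT1 on chromosome 12 they were 0.15, 0.15, 0.06 and 0.01, with both genes at or below these medians in every clone. The medians over all tested genes lay within 0.01 of 0.

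**Figure D4:**
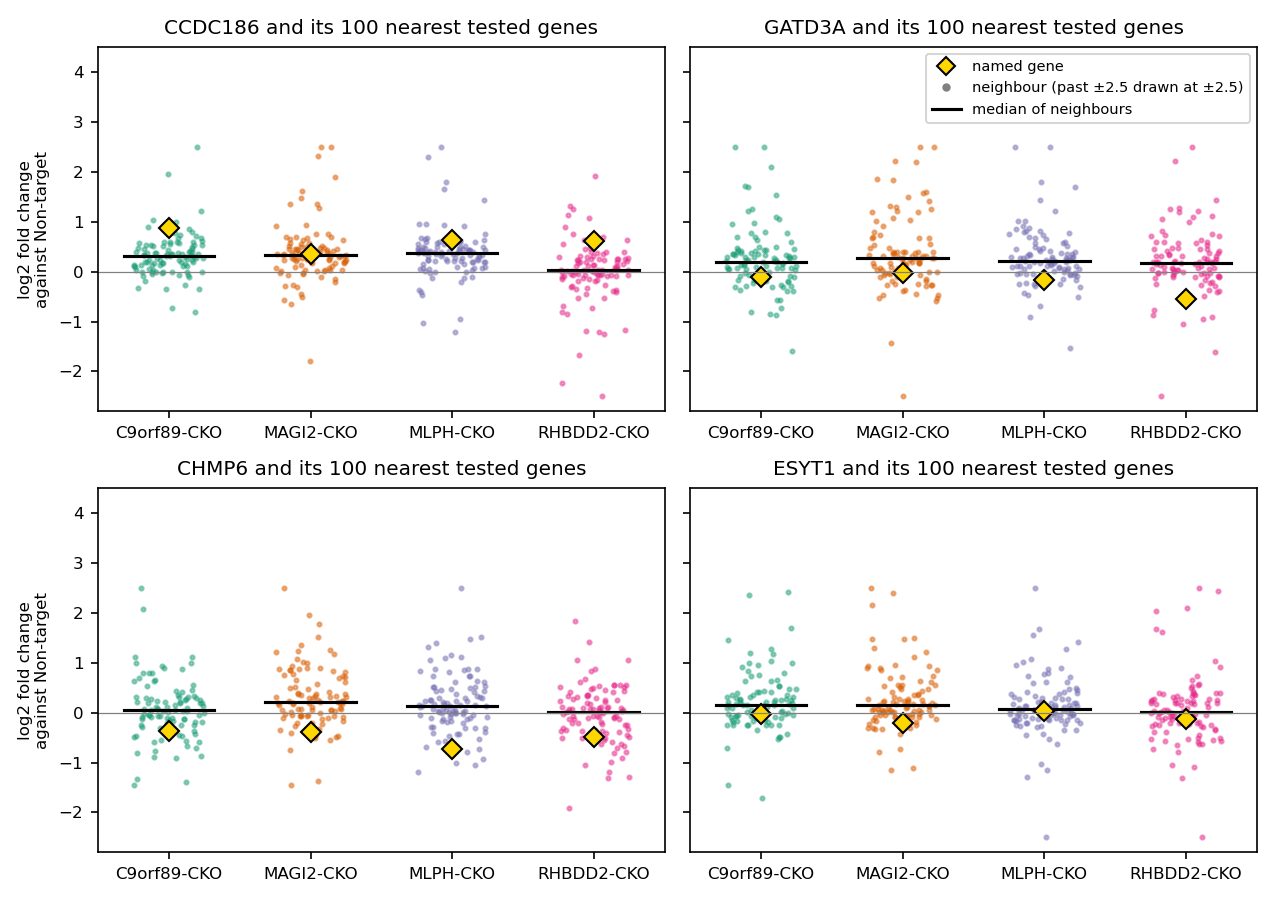
Log2 fold change against Non-target of each gene (diamond), of its 100 nearest tested genes on the chromosome (points, with 22 of 1600 values past ±2.5 drawn at 2.5 or -2.5) and their median (line), by clone. CCDC186 lay above the median of its neighbours, which was raised in 3 clones (0.32 to 0.38), and CHMP6 lay below the median in all 4.

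Overlapping and adjoining genes were checked next. AC127496.7, an uncertain transcript inside CHMP6 on the same strand, had a mean of 1.08 FPKM, or 35.2 fragments a library. Its log2 fold change was 1.22 in the MAGI2 clone (limma, adjusted p = 0.0136), opposite in direction to CHMP6. In the RHBDD2 clone it was -1.18 (adjusted p = 0.0174), the direction of CHMP6. It missed the threshold in the C9orf89 clone (0.64) and the MLPH clone (0.61). RPTOR, the neighbour of CHMP6 at lower coordinates and a subunit of the growth kinase complex mTORC1, missed the threshold in all 4 clones (-0.13 to 0.10). ZC3H10, a zinc finger gene that overlaps the 5′ part of ESYT1 on the same strand at a mean of 1.51 FPKM, was higher in all 4 clones by 0.30 to 0.42. MYL6B, a myosin light chain gene on the other side of ESYT1, was lower in all 4 clones, at -1.08 in the RHBDD2 clone and -0.50 to -0.43 in the others. The neighbours of CCDC186 were AFAP1L2, an adaptor gene that was higher in the C9orf89 clone, the MAGI2 clone and the MLPH clone (0.93 to 1.21) and at -0.05 in the RHBDD2 clone, and ADRB1, an adrenergic receptor gene that missed the threshold in all 4 clones. Beside GATD3A, PWP2, a ribosome assembly gene, passed in no clone, and PFKL, a glycolytic enzyme gene, was lower in the MAGI2 clone (-0.53, adjusted p = 0.0142). Whether counting used strand is not stated, so fragments of antisense transcripts in these loci cannot be told apart from those of the 4 genes.

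The pathway of CHMP6 was described with 30 ESCRT genes, all of which were tested. Of these, 2 rose and 3 fell in the C9orf89 clone, in the MAGI2 clone 3 rose and 9 fell, in the MLPH clone 5 rose and 4 fell, and in the RHBDD2 clone 3 rose and 2 fell. Their shares past the threshold, 16.7%, 40.0%, 30.0% and 16.7%, stood beside 26.0%, 36.1%, 30.1% and 34.1% of all tested genes, and their median log2 fold changes lay between -0.05 and 0.07. From wells 2 and 3 alone, 11, 15, 13 and 11 of 30 passed, against 32.4%, 40.4%, 36.9% and 42.0% of all tested genes.

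Of the 30 ESCRT genes, 5 passed in the same direction in at least 3 clones, where 17.7% of all tested genes did. STAM, an adaptor of ESCRT-0 that binds ubiquitinated cargo, was 9.74 ± 0.430 FPKM in Non-target (SD, n = 3) and rose in all 4 clones, to means of 11.5 to 14.2 FPKM (log2 fold changes 0.23 to 0.54). Its 0.22 in the RHBDD2 clone from wells 2 and 3 alone missed the threshold (limma, adjusted p = 0.0722). Its relative STAM2 rose in the C9orf89 clone, the MLPH clone and the RHBDD2 clone (0.36 to 0.59) and was at 0.22 in the MAGI2 clone (adjusted p = 0.0993). MVB12B, a subunit of ESCRT-I, fell in all 4 clones, from 3.55 ± 0.378 FPKM to means of 2.41 to 2.70 FPKM (-0.53 to -0.39). CHMP2B, which like CHMP6 belongs to ESCRT-III, was 29.9 ± 2.14 FPKM in Non-target and fell in the C9orf89 clone, the MAGI2 clone and the MLPH clone (-0.42 to -0.35), with -0.19 in the RHBDD2 clone (adjusted p = 0.139), which with wells 2 and 3 alone became -0.23 and passed (adjusted p = 0.0143). VPS37C, another subunit of ESCRT-I that was named after its values were seen, fell in the same 3 clones (-0.40 to -0.38).

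The setting of ESYT1 was described with 24 genes of ER contact sites, 21 of them tested. In the C9orf89 clone 6 rose and 4 fell, in the MAGI2 clone 5 and 5, in the MLPH clone 4 and 3, and in the RHBDD2 clone 7 and 3, or 47.6%, 47.6%, 33.3% and 47.6% of those tested. These shares lay above those of all tested genes given above, with median log2 fold changes of -0.01 to 0.09. From wells 2 and 3 alone 10, 9, 10 and 12 of 21 passed (47.6%, 42.9%, 47.6% and 57.1%), beside 32.4%, 40.4%, 36.9% and 42.0% of all tested genes, and with all wells 7 of 21 passed in 1 direction in at least 3 clones, beside 17.7% of all tested genes. PITPNM1, a lipid transfer protein recruited where ER and plasma membrane meet, was 4.92 ± 0.966 FPKM in Non-target (SD, n = 3) and rose in all 4 clones to means of 7.58 to 11.5 FPKM (0.61 to 1.23). GRAMD1C, a sterol carrier of the ER, rose in all 4 clones (0.57 to 0.98) from a low mean of 0.467 FPKM. ANO8, a tether of the anoctamin family, rose in the C9orf89 clone, the MAGI2 clone and the MLPH clone (0.60 to 1.15) and was at 0.09 in the RHBDD2 clone, which with wells 2 and 3 alone became 0.37 and passed (adjusted p = 0.00758). ORAI1, the calcium channel of store-operated entry, was 15.6 ± 2.90 FPKM in Non-target and fell in the C9orf89 clone, the MAGI2 clone and the RHBDD2 clone (-0.76 to -0.60). In the MLPH clone it was at -0.47 (adjusted p = 0.0527), and with wells 2 and 3 alone that comparison passed at -0.57 (adjusted p = 0.00809).

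For CCDC186, 23 genes of Golgi tethers and dense-core vesicles were tested. In the C9orf89 clone 0 rose and 2 fell, in the MAGI2 clone 1 rose and 6 fell, in the MLPH clone 1 rose and 3 fell, and in the RHBDD2 clone 5 rose and 3 fell, which is 8.70%, 30.4%, 17.4% and 34.8% past the threshold beside 26.0%, 36.1%, 30.1% and 34.1% of all tested genes. With wells 2 and 3 alone 6, 9, 12 and 10 passed, or 26.1%, 39.1%, 52.2% and 43.5%, beside 32.4%, 40.4%, 36.9% and 42.0% of all tested genes. In 1 direction in at least 3 clones 2 of the 23 passed, beside 17.7% of all tested genes. ARFIP2, a membrane-bending protein of the trans-Golgi, fell in all 4 clones from 20.1 ± 0.776 FPKM (SD, n = 3) to means of 14.5 to 18.1 FPKM (-0.47 to -0.15). GORASP1, which helps stack Golgi cisternae, fell in all 4 clones as well (-0.29 to -0.20). With wells 2 and 3 alone, ARFIP2 missed the threshold in the C9orf89 clone (-0.16, adjusted p = 0.0559) and the RHBDD2 clone (-0.11, adjusted p = 0.142), and GORASP1 in the C9orf89 clone (-0.16, adjusted p = 0.126). Of the 13 amidotransferase-fold and glyoxalase genes set beside GATD3A, 2, 4, 2 and 3 passed in the clones in the same order (15.4%, 30.8%, 15.4% and 23.1%, beside 26.0%, 36.1%, 30.1% and 34.1% of all tested genes), and 4, 9, 6 and 5 with wells 2 and 3 alone (30.8%, 69.2%, 46.2% and 38.5%, beside 32.4%, 40.4%, 36.9% and 42.0%). With all wells, 0 of the 13 passed in 1 direction in 3 or more clones, beside 17.7% of all tested genes.

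Among the other 35 candidates of the screen, 14 were tested. Of these 1 rose and 2 fell in the C9orf89 clone, 2 rose and 3 fell in the MAGI2 clone, 1 rose and 3 fell in the MLPH clone, and 1 rose and 5 fell in the RHBDD2 clone. Their shares past the threshold were 21.4%, 35.7%, 28.6% and 42.9%, beside 26.0%, 36.1%, 30.1% and 34.1% of all tested genes, and with wells 2 and 3 alone 7, 6, 6 and 7 of 14 passed, beside 32.4%, 40.4%, 36.9% and 42.0% of all tested genes. In 1 direction in at least 3 clones 2 of the 14 passed, beside 17.7% of all tested genes. The falls include those of CARD19 in the C9orf89 clone and of RHBDD2 in the RHBDD2 clone, each in the clone where it was targeted. PDZD8, an ER protein that tethers other organelles, rose in all 4 clones from 8.30 ± 0.504 FPKM (SD, n = 3) to means of 10.0 to 11.2 FPKM (0.27 to 0.44). It is also on the list of ER contact site genes, so both lists count it. It lies at chr10:117277274-117375467, within the stretch of the 100 neighbours of CCDC186, whose median was raised in 3 of the clones but not in the RHBDD2 clone. OXSM, a mitochondrial enzyme of fatty acid synthesis, fell in the C9orf89 clone, the MAGI2 clone and the MLPH clone (-0.39 to -0.31) and was at 0.01 in the RHBDD2 clone. The genes around OXSM on its chromosome, and those around GORASP1 and CHMP2B, were not compared.

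**Figure D5:**
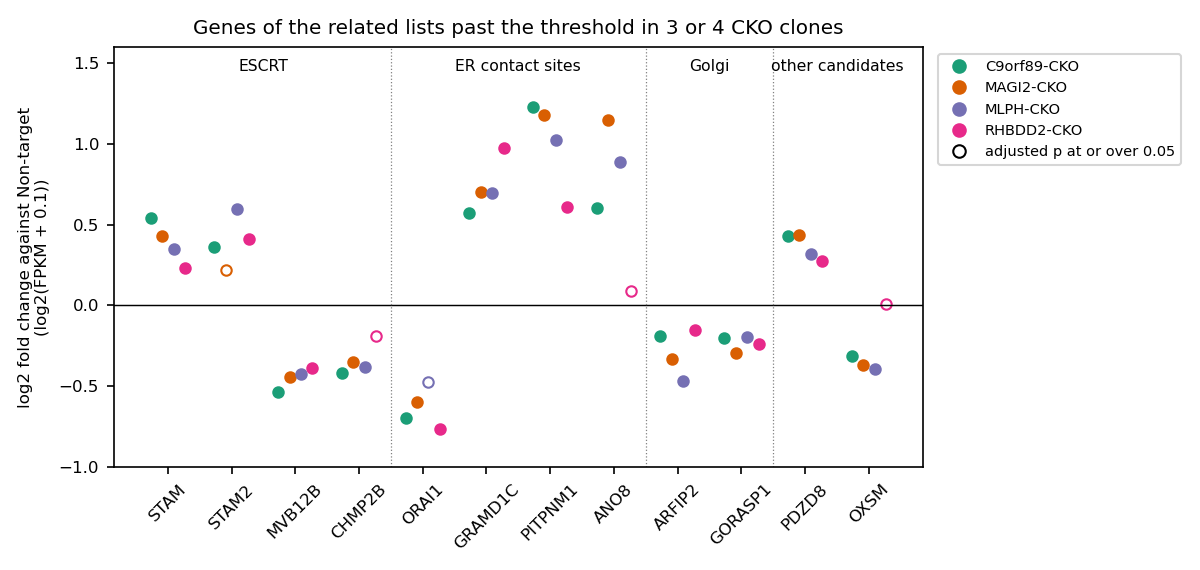
Log2 fold change against Non-target of the genes named from the ESCRT, ER contact site, Golgi and candidate lists, by clone; open symbols missed the threshold. STAM, GRAMD1C, PITPNM1 and PDZD8 lay above 0 with filled symbols in all 4 clones, and MVB12B, ARFIP2 and GORASP1 below 0.

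The likeness of patterns was described by Pearson's r of log2(FPKM + 0.1) over the 15 libraries, among 12532 other genes with a mean of at least 1 FPKM. The libraries share clones and wells, so these values describe the pattern and carry no test. The genes most like CCDC186 were FAM13B (r = 0.950), SYNM (0.941) and FABP5 (0.938), and FAM13B averaged 3.62 FPKM in Non-target and 4.13 to 5.45 FPKM in the clones. Those most like CHMP6 were RHNO1 (0.918), IAH1 (0.905) and ALDH1B1 (0.900), and IAH1 averaged 5.18 FPKM in Non-target and 2.14 FPKM in the MLPH clone, its lowest group. For ESYT1 they were LZTS3 (0.914), MYO1C (0.910) and RASSF7 (0.910), and for GATD3A they were MZT2A (0.840), KLHDC3 (0.839) and TNIP1 (0.824). MZT2A averaged 35.5 FPKM in Non-target and 19.9 FPKM in the RHBDD2 clone, where GATD3A was lowest too. Among the 4 genes themselves r was -0.61 for CCDC186 with CHMP6, 0.35 for GATD3A with CHMP6 and between -0.27 and 0.06 for the other 4 pairs.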

How the data were processed

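Values were deposited by the authors as 1 table a library and are read here as FPKM, since each one times its gene's union of GENCODE v29 exons was a whole multiple of 1 fragment's worth in its library (100% within a tolerance of 0.01). The submitters' processing notes name HISAT2 2.0.5, featureCounts 1.5.0-p3 and DESeq2 without roles; the build is not given in the sources used here. Genes reaching 0.5 FPKM in 3 or more libraries entered limma 3.58.1 (R 4.3.3, trend, all 15 libraries, prior degrees of freedom 2.62) on log2(FPKM + 0.1), with Benjamini-Hochberg adjustment. On data simulated for 1 group against Non-target (16175 genes, 200 changed by 1 log2 unit), 177 were recovered and 9 unchanged genes were called. The simulated libraries were independent, without the shift of the wells numbered 1, and held far fewer changed genes than were called here. The changes were also larger than those of the 4 genes, so the simulation does not show how reliable their calls are. The members and gene lists were chosen with earlier results of these data known. Named were the 4 genes, the targeted genes, GATD3B, ESYT2 and ESYT3, up to 4 genes a list past the threshold in 1 direction in at least 3 clones, the 3 most correlated genes and the adjoining tested genes. Python 3.11.15 did the rest. Proteins were not used here.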

Additional observations from a re-analysis of the deposited data

How the results depend on the processing

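Every value here is a log2 fold change by limma, and the cause of a change with the setting was not tested. CCDC186 in 3 clones and CHMP6 in MLPH-CKO and RHBDD2-CKO kept direction and call under every alternative and with any library left out. Against Non-target, CCDC186 in MAGI2-CKO missed the threshold without a filter on low values (0.36, adjusted p = 0.0535) and when only the 6 libraries compared were fitted (0.36, adjusted p = 0.110), and it ran from 0.27 to 0.49 as each library was left out. Leaving out libraries gave CHMP6 values of -0.44 to -0.31 in C9orf89-CKO and -0.47 to -0.31 for MAGI2-CKO. GATD3A in RHBDD2-CKO missed the threshold with GATD3B added (-0.34) and with wells 2 and 3 alone (-0.55), and ran from -0.62 to -0.43 with libraries left out. Differences that never passed changed sign for GATD3A in MAGI2-CKO with GATD3B added (0.043) and with libraries left out (-0.10 to 0.082), for GATD3A in C9orf89-CKO (-0.26 to 0.030), for ESYT1 in MLPH-CKO (-0.025 to 0.11) and for ESYT1 in C9orf89-CKO under quantile normalization (0.041). With wells 2 and 3 alone ESYT1 in MAGI2-CKO passed (-0.19).

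Between clones, CHMP6 in C9orf89-CKO against MLPH-CKO (0.36) and in MAGI2-CKO against MLPH-CKO (0.33) missed the threshold without a filter, without the trend and with the 6 libraries alone, and with libraries left out they ran from 0.27 to 0.41 and from 0.25 to 0.41. GATD3A in MAGI2-CKO against RHBDD2-CKO missed it with GATD3B added (0.38) and with wells 2 and 3 alone (0.43), and ran from 0.46 to 0.61. GATD3A in C9orf89-CKO against RHBDD2-CKO passed with a mean of at least 1 FPKM (0.44) and with voom weights (0.44), and ran from 0.27 to 0.57. With libraries left out, GATD3A in MLPH-CKO against RHBDD2-CKO ran from 0.30 to 0.48 and ESYT1 in MAGI2-CKO against MLPH-CKO from -0.31 to -0.17, each past the threshold once. Wells 2 and 3 alone let CCDC186 in C9orf89-CKO against RHBDD2-CKO pass (0.30), as well as ESYT1 in MAGI2-CKO against MLPH-CKO (-0.24) and in MLPH-CKO against RHBDD2-CKO (0.16). Signs changed, with no call, for C9orf89-CKO against MAGI2-CKO in CHMP6 (-0.012 with wells 2 and 3 alone, -0.055 to 0.11 with libraries left out) and in GATD3A (0.0011, and -0.24 to 0.056), for GATD3A in C9orf89-CKO against MLPH-CKO (-0.10 to 0.20), and for CCDC186 in MLPH-CKO against RHBDD2-CKO (-0.0094 under quantile normalization, -0.00011 with wells 2 and 3 alone, -0.066 to 0.074).

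With the replicate number as a block, ESYT1 passed in MAGI2-CKO (-0.20, adjusted p = 0.00408) and RHBDD2-CKO (-0.13, adjusted p = 0.0390) against Non-target, where 7169 and 7036 of 16175 tested genes passed (5835 and 5511 without the block). Between clones the block let ESYT1 pass in C9orf89-CKO against MAGI2-CKO (0.17), MAGI2-CKO against MLPH-CKO (-0.24) and MLPH-CKO against RHBDD2-CKO (0.17), and CCDC186 in C9orf89-CKO against MLPH-CKO (0.25) and RHBDD2-CKO (0.25) and in MAGI2-CKO against MLPH-CKO (-0.26) and RHBDD2-CKO (-0.25). The wells numbered 1 deviated together, with 10 of 10 pairs of groups correlated above 0.1 (0.128 to 0.312). Those numbered 2 and those numbered 3 each had 1 of 10 pairs above 0.1, and wells 2 correlated with wells 3 of other groups at a median of 0.0661, between 0.0383 among wells 2 and 0.0795 among wells 3. As not every pair exceeded 0.1, the numbers were not taken as pairs, although the wells numbered 1 share a shift. C9orf89-CKO against MLPH-CKO gave 2303 genes past the threshold, 1275 with the 6 libraries alone and 3640 with the block, and every other pair of clones also gave more with it (4762 to 8066 against 3428 to 6726). With 283 to 840 fragments a library for CCDC186, CHMP6 and GATD3A, counting error adds to the spread between wells, and 1 clone a genotype limits all comparisons.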

Other observations

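Of the candidates not described above, these were picked after their values were seen. ZFP62, a zinc finger gene, was at -0.81 in MLPH-CKO (limma, adjusted p = 0.000248) and between -0.15 and -0.01 in the other clones, which missed the threshold. OTUB2, which encodes a deubiquitinating enzyme, was higher in MAGI2-CKO (0.33) and lower in MLPH-CKO (-0.46) and RHBDD2-CKO (-0.36), with 0.08 in C9orf89-CKO.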
